A study of Mus musculus with 6 samples.

Results

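Transforming growth factor-beta (TGF-beta) superfamily genes encode secreted ligands, their receptors, extracellular binding proteins, Smad transducers and nuclear partners. They were taken from the probe annotation of the array by symbol, which gave 77 of the 13840 genes named by a probe with 1 symbol. The rule covers BMP, GDF, TGF-beta and activin or inhibin ligands, BMP, activin and TGF-beta receptors, latent TGF-beta binding proteins, secreted inhibitors, Smads, Smurfs, Ski and Tgif proteins, Id proteins and Zeb factors. Of the 77 genes, 43 had a signal on all 6 arrays, 21 had a signal on 1 to 5 arrays and 13 were blank on every array. The name rule also took 9 genes that are not ligands, receptors or transducers of the pathway, among them 5 Skint genes, the helicase gene Skiv2l, the matrix protein gene Tgfbi and Bmp2k, a kinase named for its induction by BMP2.

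Inguinal fat, a subcutaneous depot, came from male C57BL/6J mice, an inbred strain, given a high saturated fat diet from 8 weeks of age for 4 weeks. The high gainers, 8 mice with high weight gain, gave 1 RNA pool and the low gainers, 8 mice with low weight gain, gave another pool. Every pool was measured on 3 arrays that carry a single label. All mice shared strain, sex, diet and single housing, so that the groups differ by weight gain and not by a treatment. Arrays were technical repeats on the same RNA, 3 for each pool, so that n counts arrays, the p-values measure the spread between arrays of these pools, and variation between mice cannot be seen.

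In this pathway a dimeric ligand joins type I and type II receptor kinases, which phosphorylate Smad proteins that then enter the nucleus with a common partner. BMP ligands act through Smad1, Smad5 and Smad9 and raise Id genes, whereas TGF-betas and activins act through Smad2 and Smad3. Outside the cell, proteins of the chordin, noggin, follistatin and gremlin families hold ligands away from their receptors, and latent TGF-beta binding proteins store TGF-beta in the matrix. In fat, BMP4 is known for committing stromal precursors to the adipocyte lineage and TGF-beta for holding adipocyte differentiation back.

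RefSeq (GRCm38.p6) gave a promoter sequence for 33 of the 43 measured genes, and none for Bmp3 and Chrdl1, described below. The 250 bases before the transcription start are shown for Fstl3, the gene with the largest ratio, and for Bmpr1a and Nbl1, a receptor and a BMP antagonist. Bmpr1a and Nbl1 were picked without a rule from the 18 genes whose high-gainer arrays all lay above the low-gainer arrays. Capitals mark matches to a pair of short motifs linked to Smad binding, CAGACA (searched on both strands, where it reads TGTCTG on the other) and the GC-rich palindrome GGCGCC of BMP-responsive genes.
Fstl3 (GRCm38.p6, chr10:79777024-79777273, plus strand): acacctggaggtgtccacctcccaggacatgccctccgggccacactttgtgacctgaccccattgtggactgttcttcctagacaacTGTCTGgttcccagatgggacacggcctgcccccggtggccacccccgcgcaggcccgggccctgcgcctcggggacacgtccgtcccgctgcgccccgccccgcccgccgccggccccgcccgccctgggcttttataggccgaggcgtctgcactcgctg
Bmpr1a (GRCm38.p6, chr14:34502547-34502796, minus strand): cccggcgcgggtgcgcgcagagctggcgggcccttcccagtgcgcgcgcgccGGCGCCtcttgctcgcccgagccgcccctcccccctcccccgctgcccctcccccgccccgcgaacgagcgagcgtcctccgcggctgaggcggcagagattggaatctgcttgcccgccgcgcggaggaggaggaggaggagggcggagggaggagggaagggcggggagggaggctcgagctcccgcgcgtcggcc
Nbl1 (GRCm38.p6, chr4:139092971-139093220, minus strand): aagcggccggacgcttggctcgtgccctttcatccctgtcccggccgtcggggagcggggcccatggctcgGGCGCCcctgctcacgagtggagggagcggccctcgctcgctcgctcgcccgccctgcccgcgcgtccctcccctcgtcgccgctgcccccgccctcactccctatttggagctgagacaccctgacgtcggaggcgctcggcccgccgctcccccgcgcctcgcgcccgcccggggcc

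The Fstl3 window held 1 match to CAGACA, on the other strand, at position -162 from the transcription start. The Bmpr1a and Nbl1 windows each held 1 match to GGCGCC, at positions -198 and -179. Of the 32851 promoter windows of the table, 17.1% held CAGACA and 9.59% held GGCGCC, and of the 48 windows of the measured superfamily genes, 14.6% and 27.1% did. Of the 33 genes with a window, 6 held CAGACA and 12 held GGCGCC, so that the genes shown, which all hold a match, do not stand for the rest. The mean GC content was 65.7% in the superfamily windows and 53.2% in all windows. A match describes letters in the window and does not show that a protein binds there.

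Among the 43 measured genes, 3 had more signal in high gainers by the call rule and none had less. The 3 were Fstl3 and Chrdl1, which encode secreted inhibitors of activin and of BMP, and Bmp3, which encodes a BMP that opposes bone-forming BMPs. Calls came from limma, fitted to the log2 signals of all 15821 probes with a value on every array, and needed a fold change of at least 1.5 besides an adjusted p (Benjamini-Hochberg) under 0.01. By this rule 2.50% of all probes were higher and 3.99% were lower in high gainers, 6.50% in all. The test named in the study's methods, run on the same log2 signals with the same thresholds and no adjustment of p, called 4 of the 43 genes higher, Nbl1 being the addition, and none lower, beside 3% (474) and 4.29% (679) of all probes. At an unadjusted p under 0.05 from limma, 17 of the 43 genes had a ratio above 1 and 3 a ratio below 1, beside 17.4% and 13.6% of all probes. The log2 ratio of high over low gainers was above 0 for 38 of the 43 genes, beside 54.1% of all probes, and its median was 0.24, beside 0.03 for all probes. All 3 high-gainer arrays lay above all 3 low-gainer arrays for 18 genes, beside 20.3% of probes, and below them for 3 genes, beside 16.3%. With the median change of 18 adipocyte markers (log2 0.14) taken as the zero, 28 of 43 genes stayed above 0, and the medians were 0.09 for the superfamily and -0.12 for all probes. Of all calls, 38.5% were higher in high gainers, and 18.5% with that zero.

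**Figure D1:**
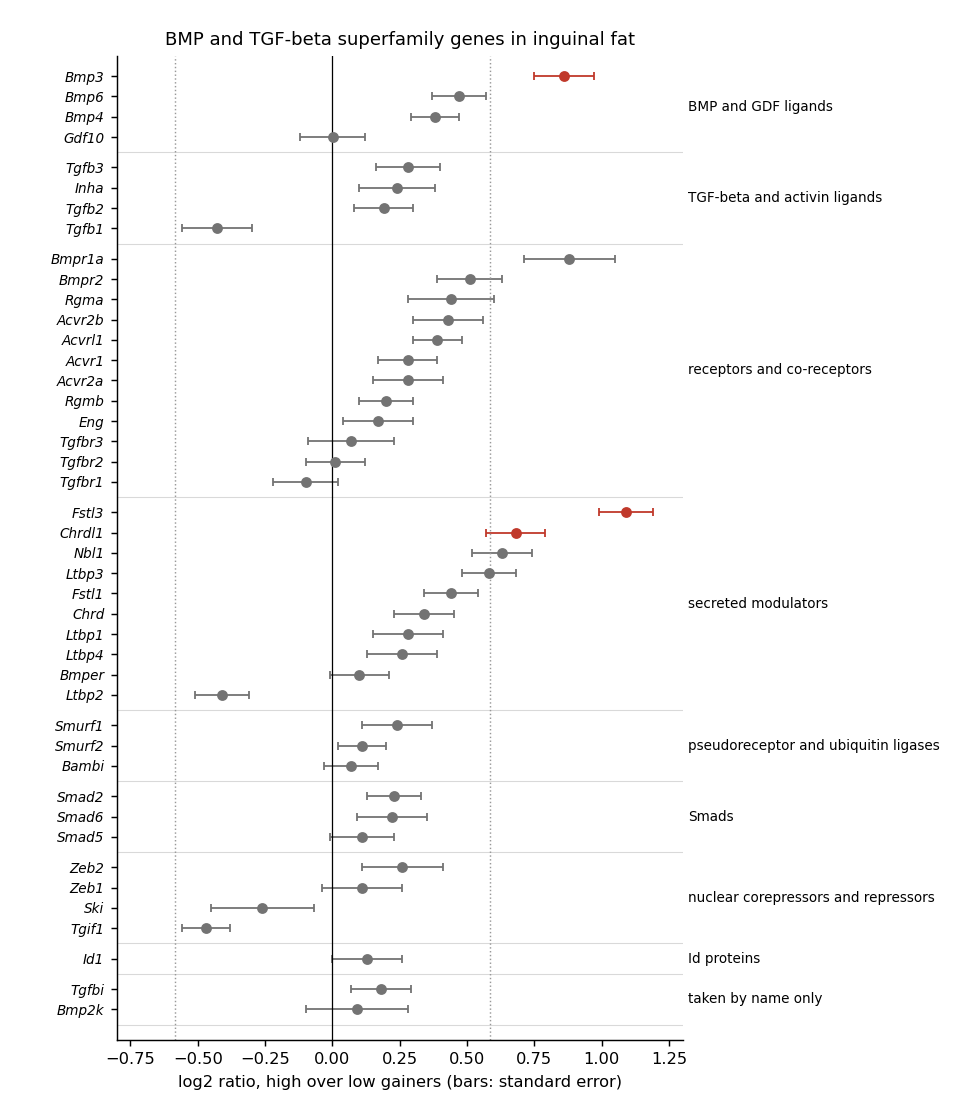
Log2 ratio of high over low gainers (horizontal axis) for the 43 superfamily genes with a signal on all 6 arrays, grouped by role; bars are standard errors from limma, red marks called genes, and dotted lines mark a fold change of 1.5. Fstl3 (1.09), Bmp3 (0.86) and Chrdl1 (0.68) are called, and 5 genes lie below 0.

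Fstl3 encodes follistatin-like 3, a secreted protein that binds activins and myostatin. Its signal was 11801, 10010 and 11056 on the high-gainer arrays and 5350, 4847 and 5270 on the low-gainer arrays. The high-gainer arrays all exceeded the low-gainer arrays. The signal was 2.12-fold higher (log2 1.09 with a standard error of 0.10, adjusted p = 0.00066 from limma). Leaving out 1 array at a time kept the call in 6 of 6 fits, at log2 ratios of 1.03 to 1.15 and an adjusted p of up to 0.00515. The probe was among the lowest 33.3% of tested probes by signal, called dim here.

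Bmp3 was the called gene among 4 measured BMP and GDF ligands, beside 2.50% of all probes called higher. Its signal was 15867, 17087 and 16289 in high gainers and 8125, 9900 and 9190 in low gainers, and the pools did not overlap. The means were 16414 ± 620 (SD, n = 3 arrays) and 9072 ± 893 (SD, n = 3 arrays), 1.81 times as much in high gainers (log2 0.86 with a standard error of 0.11, adjusted p = 0.002 from limma). Leaving out 1 array at a time kept the call in 3 of 6 fits. Without the first or second high-gainer array the adjusted p was 0.0116 or 0.0113 (limma), and without low gainers replicate 3 it was 0.0102, while the log2 ratio stayed between 0.78 and 0.92. The study followed Bmp3 up from its array results, so that its place here is not independent of that choice. The study ran a TaqMan array of selected genes on fat of individual high and low gainers. For BMP3 it described a strong association with higher adiposity. It also measured BMP3 mRNA by TaqMan assay in epididymal fat biopsies of individual mice before the high-fat diet. In the biopsies it reported an association with the adiposity reached later. The biopsies are of another depot and time than the pools here.

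Of the other BMP and GDF ligands, Bmp4, the precursor-committing ligand, gave 5601, 5314 and 5441 in high gainers and 4143, 4478 and 3924 in low gainers with a dim probe. Bmp6, a ligand known for its part in iron balance, gave 10699, 10693 and 9875 in high gainers and 8129, 7344 and 7085 in low gainers. For both genes each high-gainer array was above each low-gainer array, and neither was called. The ratio was 1.31 for Bmp4 (adjusted p = 0.0325 from limma) and 1.39 for Bmp6 (adjusted p = 0.0177), below the fold of 1.5. Gdf10, also known as BMP3B and close to Bmp3 in sequence, gave 28700, 32967 and 25763 in high gainers and 31195, 27331 and 28537 in low gainers. The Gdf10 arrays overlapped, with a log2 ratio of 0.0009 and a 95% interval from -0.28 to 0.28, and the ratio was -0.14 with the adipocyte markers as the zero.

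Among 4 measured TGF-beta and activin ligands none was called, beside 2.50% of all probes called higher and 3.99% lower. Tgfb1, the isoform best known from immune cells, gave 14286, 12456 and 15481 in high gainers and 21259, 18372 and 17258 in low gainers. Every high-gainer array was below every low-gainer array, at 1.35-fold less signal (log2 -0.43 with a standard error of 0.13, adjusted p = 0.0573 from limma). Markers of B lymphocytes (9 of 9) and T lymphocytes (7 of 9) were called lower in high gainers, and their part in the Tgfb1 ratio was not tested. Tgfb2 and Tgfb3, the other isoforms, had log2 ratios of 0.19 and 0.28, with arrays that overlapped and a dim probe for Tgfb2. Inha, the inhibin alpha subunit, had a log2 ratio of 0.24 with a dim probe. The difference between the isoforms was not tested.

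No receptor or co-receptor was called among 12 measured, beside 2.50% of all probes called higher and 3.99% lower. A ratio above 1 was seen for 11 of the 12, beside 54.1% of all probes, and 7 had every high-gainer value above the low-gainer values, beside 20.3%. Bmpr1a, the type I BMP receptor ALK3, gave 4886, 6686 and 5342 in high gainers and 3478, 2468 and 3285 in low gainers. The pools did not overlap and the signal was 1.84 times as high (log2 0.88 with a standard error of 0.17, adjusted p = 0.014 from limma), with a dim probe. Among 12 other settings tried, Bmpr1a was called in 1, where the spread was estimated robustly along the signal. Bmpr2, the type II BMP receptor, gave 53769, 54060 and 48090 in high gainers and 40814, 32677 and 36204 in low gainers, which is 1.43-fold (adjusted p = 0.0237). Acvrl1, the endothelial receptor ALK1, and Acvr2b, an activin type II receptor, stood at 1.31-fold (adjusted p = 0.0277) and 1.34-fold (adjusted p = 0.0589), also without overlap. Acvr1, with a dim probe, and the repulsive guidance molecules Rgma and Rgmb, which are BMP co-receptors, had ratios of 1.22, 1.35 and 1.15 and likewise no overlap. Hjv, a further repulsive guidance molecule, fell outside the name rule and is not among the 12. It went the other way, at 1.45-fold less signal (log2 -0.54, adjusted p = 0.0199). Its pools did not overlap either, and it was not called. Skeletal muscle markers were also lower in high gainers (10 of 10 with a ratio below 1, median log2 -0.85). Their part in the Hjv ratio was not tested.

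The receptors of TGF-beta itself had ratios near 1. Tgfbr2, the type II receptor, gave 23417, 23852 and 19440 in high gainers and 23023, 21418 and 21684 in low gainers. Its log2 ratio was 0.01 with a 95% interval from -0.25 to 0.27, and -0.14 with the adipocyte markers as the zero. The intervals ran from -0.37 to 0.17 for Tgfbr1, the type I receptor, and from -0.30 to 0.44 for Tgfbr3, the co-receptor betaglycan, whose probe was dim and whose log2 ratio of 0.07 became -0.08 with that zero. The arrays of these 3 genes overlapped between the pools. Eng, an endothelial co-receptor that is also in the endothelial marker list, had a log2 ratio of 0.17 with overlap. Whether BMP receptors and TGF-beta receptors differ in their ratios was not tested.

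**Figure D2:**
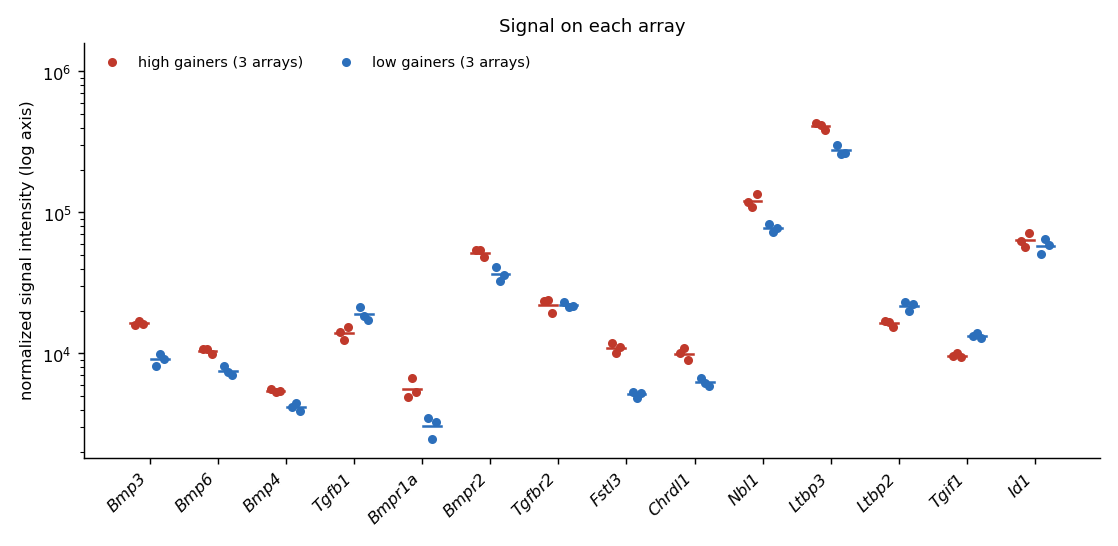
Normalized signal intensity (log axis) of 14 superfamily genes on each of the 6 arrays, red for high gainers and blue for low gainers; short lines are means of 3 arrays. Bmp3 lies at 16414 against 9072 on average and Fstl3 at 10956 against 5156, while Tgfb1, Ltbp2 and Tgif1 lie lower in high gainers and the arrays of Tgfbr2 and Id1 overlap.

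Of 10 measured secreted modulators, 2 were called higher, Fstl3 and Chrdl1, beside 2.50% of all probes, and 9 had a ratio above 1, beside 54.1%. Chrdl1 encodes chordin-like 1, a BMP antagonist. It gave 10000, 10932 and 9025 in high gainers and 6669, 6154 and 5870 in low gainers, with no overlap and 1.60-fold more signal (log2 0.68 with a standard error of 0.11, adjusted p = 0.00651 from limma). The log2 ratio stayed between 0.61 and 0.75 when 1 array was left out, while the call was kept in 1 of 6 fits, the one without the third high-gainer array (adjusted p = 0.00969 from limma). The adjusted p was 0.0338 or 0.0254 without the first or second high-gainer array, and 0.0124, 0.0257 or 0.0323 without low-gainer array 1, 2 or 3. Of 13 other settings 8 kept the call, and it was lost with the adipocyte markers as the zero.

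Nbl1 and Ltbp3 stood at the edge of the threshold. Nbl1, which encodes the BMP antagonist DAN, gave 117883, 109097 and 135317 in high gainers and 82629, 72812 and 77683 in low gainers, which is 1.55-fold (limma, adjusted p = 0.0101). Ltbp3, a latent TGF-beta binding protein, gave 433205, 413950 and 383935 in high gainers and 300950, 259882 and 265166 in low gainers, which is 1.49-fold (adjusted p = 0.0101). Both had pools that did not overlap. Nbl1 was called in 5 of 13 other settings, among them the fit without dim probes, and Ltbp3 in none. Neither was called with any 1 array left out.

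Ltbp2, the family member that does not bind TGF-beta, went the other way. It gave 16931, 16780 and 15426 in high gainers and 23087, 20169 and 22307 in low gainers, with every high-gainer array lower. The signal was 1.33-fold less (log2 -0.41 with a standard error of 0.10, adjusted p = 0.0296 from limma) and was not called. Ltbp1 and Ltbp4 had log2 ratios of 0.28 and 0.26 with overlap. Fstl1, a secreted glycoprotein of stromal cells, and Chrd, the BMP antagonist chordin, stood at 1.35-fold (adjusted p = 0.0263) and 1.26-fold (adjusted p = 0.0697) without overlap. Bmper, a BMP-binding endothelial regulator, had a log2 ratio of 0.10 with overlap, and -0.04 with the adipocyte markers as the zero.

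Inside the cell few genes were measured: 3 pseudoreceptor and ubiquitin ligase genes, 3 Smads, 4 nuclear repressors and 1 Id gene. None was called, beside 2.50% of all probes called higher and 3.99% lower. Smad2, which carries TGF-beta and activin signals, gave 36269, 42279 and 38864 in high gainers and 34339, 32534 and 32826 in low gainers, with no overlap and a ratio of 1.18 (adjusted p = 0.153 from limma). Smad5, which carries BMP signals, and Smad6, an inhibitory Smad, had log2 ratios of 0.11 and 0.22 with overlap. Bambi, a receptor-like protein without a kinase that blocks signals, had a 95% interval of the log2 ratio from -0.17 to 0.31. Smurf1 and Smurf2, ubiquitin ligases for Smads and receptors, had log2 ratios of 0.24 and 0.11, with a dim probe for Smurf1. With the adipocyte markers as the zero, the log2 ratios of Smad5, Smurf2 and Bambi turned to -0.03, -0.03 and -0.07.

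Id1, the immediate BMP target, gave 62747, 57026 and 71126 in high gainers and 50989, 65150 and 58713 in low gainers. The pools overlapped, with a log2 ratio of 0.13 and a 95% interval from -0.18 to 0.44, and the ratio was -0.02 with the adipocyte markers as the zero. Tgif1, a homeodomain corepressor of Smad2 and Smad3, gave 9583, 10030 and 9393 in high gainers and 13243, 13923 and 12937 in low gainers. The high-gainer arrays were all lower, at 1.38-fold less signal (log2 -0.47 with a standard error of 0.09, adjusted p = 0.0127 from limma). Tgif1 was not called here, and of 13 other settings 1 called it lower, the one with the adipocyte markers as the zero. Ski, another corepressor, and Zeb1 and Zeb2, repressors of epithelial genes, had log2 ratios of -0.26, 0.11 and 0.26 with overlap. Of the genes taken by name only, Tgfbi, a matrix protein induced by TGF-beta, had 0.18 and Bmp2k, with a dim probe, had 0.09, also with overlap. Zeb1 and Bmp2k stood at -0.04 and -0.06 with the adipocyte markers as the zero.

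**Figure D3:**
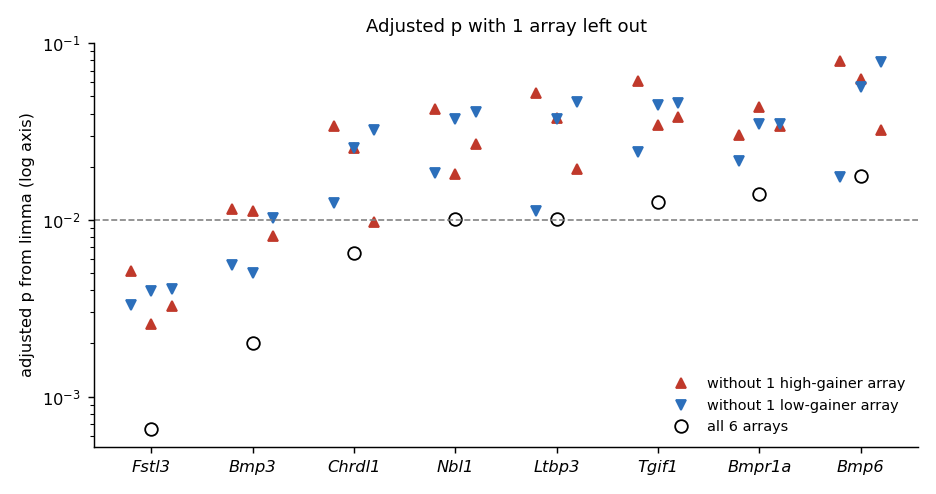
Adjusted p from limma (log axis) for the 8 superfamily genes of lowest adjusted p, with all 6 arrays (circles) and with 1 high-gainer array (red) or 1 low-gainer array (blue) left out; the dashed line is the threshold of 0.01. Fstl3 stays below the line in every fit, Bmp3 in 3 of 6 and Chrdl1 in 1 of 6.

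Other genes of the pathway were taken from 3 lists, of components outside the name rule, TGF-beta targets and BMP targets. Of 34 measured ligands, proteases, matrix regulators and transducers, 4 were called higher and 0 lower. Of 28 measured TGF-beta target genes, 2 were higher and none was lower, and of 10 measured BMP target genes, none was higher and 1 was lower. Of all probes 2.50% were called higher and 3.99% lower. The medians of the log2 ratio were 0.21, 0.14 and 0.28, and some targets are also superfamily members. Of the 21 BMP target genes with a probe, 8 had values on some arrays only and 3 on none, so that these were not tested. Dlx5, a listed gene outside the superfamily, gave 1832, 2554 and 2412 in high gainers and was blank on every low-gainer array. These values lay below 2848, the 10th percentile of the tested signals. Dlx5 was not tested either.

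Pmepa1, a membrane protein that TGF-beta induces and that limits Smad signaling, stood in the first and the second list. It was 2.28-fold higher (log2 1.19 with a standard error of 0.12, adjusted p = 0.000841 from limma), and 6 of 6 fits that left out 1 array called it. Pcolce2, an enhancer of the BMP1 procollagen protease, was 2.07-fold higher (adjusted p = 0.00111) and was also called in 6 of 6 fits. Aspn, a leucine-rich proteoglycan that binds TGF-beta, was 1.78-fold higher (adjusted p = 0.00272), Thbs2, a matrix thrombospondin, 1.67-fold (adjusted p = 0.00352) and Itgb5, an integrin chain, 1.90-fold (adjusted p = 0.00695). These last calls were kept in 2, 1 and 1 of 6 fits, and the adjusted p reached 0.0156 for Aspn and 0.0224 for Thbs2 without the first high-gainer array and 0.0291 for Itgb5 without the third low-gainer array.

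Of the 28 measured TGF-beta targets, 18 had a ratio above 1, beside 54.1% of all probes, and 10 a ratio below 1. High-gainer arrays all lay above the low-gainer arrays for 11, beside 20.3% of probes, and below them for 4, beside 16.3%. Col1a1, Col3a1 and Postn, matrix genes of fibroblasts, had log2 ratios of -0.12, 0.06 and -0.19. Col1a2, a further collagen gene, had 0.44 (adjusted p = 0.0234 from limma) without overlap. Fn1 and Lox, for fibronectin and a collagen cross-linking enzyme, had 0.43 (adjusted p = 0.0274) and 0.84 (adjusted p = 0.0111). Col1a1, Col1a2, Col3a1, Postn, Fn1 and Lox were not called. The BMP target called lower was Gata3, which is also a factor of T cells and epithelia, at a log2 ratio of -1.60 (adjusted p = 0.000312) with a dim probe. Hey1, a target of BMP and of Notch, had a log2 ratio of 0.64 (adjusted p = 0.0338) and was not called.

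Markers of cell types in the depot were compared as well. Of 19 adipocyte markers with a probe, 18 had values on all arrays. Among these Plin4 and Lep were called higher, beside 2.50% of all probes, and none was called lower. The summed signal of the 18 was 14498364 to 15162479 in high gainers and 13500720 to 14434395 in low gainers. Of 13 markers of smooth muscle and pericytes none was called. For 10 the high-gainer arrays all lay above, beside 20.3% of all probes, and for 1, Des, below, beside 16.3%. The summed signal was 512201 to 538858 against 380835 to 385855. Of 13 endothelial markers none was called and 13 had a ratio above 1 (median log2 0.23), beside 54.1% of all probes. Their sums were 878245 to 958262 against 771054 to 803137. Of 12 stromal and preadipocyte markers 1 was higher, Pi16 (log2 0.99), and 1 lower, Thy1 (-0.74, with a dim probe), beside 2.50% and 3.99% of all probes. A ratio above 1 was seen for 10 of the 12 (median log2 0.32), beside 54.1%. For 7 the high-gainer arrays all lay above, beside 20.3%, and for 1 below. The sums were 4645853 to 5646210 against 4073571 to 5021047. Of 9 macrophage markers none was called (median log2 0.09). The markers of highest signal in these lists had log2 ratios of -0.22 (Dgat2), 0.73 (Rgs5), 0.21 (Cldn5), 0.12 (Dcn) and -0.23 (Lyz2).

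Lymphoid markers were lower in high gainers, with 9 of 9 genes of B lymphocytes (median log2 -1.57) and 7 of 9 of T lymphocytes (median log2 -1.65) called, and summed signals of 181217 to 188250 against 567910 to 582054 and of 95366 to 112299 against 296942 to 330645. Of all probes 3.99% were called lower, and 54.1% had a ratio above 1. Ratios below 1 were seen for 10 of 10 skeletal muscle markers, of which 9 were called lower (median log2 -0.85). They were seen for 5 of 6 glandular epithelium markers (median log2 -1.24), of which 3 were called, Krt18 (-2.65), Cdh1 (-2.07) and Krt8 (-1.53). They were seen for 9 of 10 brown and beige adipocyte markers (median log2 -0.54), of which 2 were called, Ucp1 (-2.77) and Fabp3 (-1.77). The markers of highest signal in the 5 lists had log2 ratios of -1.80 (Cd79b, B lymphocytes), -1.82 (Cd8b1, T lymphocytes), -0.94 (Acta1, skeletal muscle), -0.19 (Cldn4, epithelium) and -0.28 (Cox8b, brown fat). None of the markers with a probe was blank on every array. Of the 12 epithelial markers with a probe, 6 had blanks and were not tested, all 6 with fewer values in high gainers. Among them Epcam gave 1001 on 1 high-gainer array and 14220, 12152 and 11672 in low gainers. Csn3 gave 2095 and 1996 on 2 high-gainer arrays and 18731, 17117 and 17374 in low gainers. The part of any of these cell types in the ratios of Tgfb1, Gata3, the receptors or the secreted modulators was not tested, and in pooled tissue RNA fewer cells of a type and less RNA per cell cannot be told apart.

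**Figure D4:**
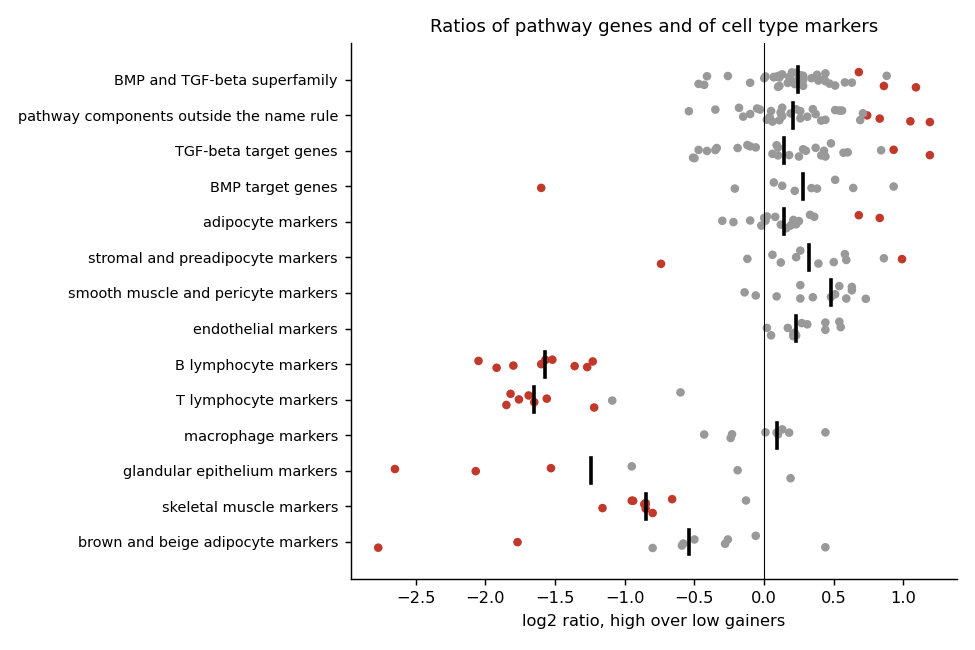
Log2 ratio of high over low gainers (horizontal axis) for each measured gene of the superfamily, of 3 pathway lists and of 10 lists of cell type markers; red points are called, gray points are not, and black lines are medians. The superfamily median is 0.24, the medians of smooth muscle and pericytes (0.48) and stromal markers (0.32) lie higher, and those of B and T lymphocytes (-1.57 and -1.65) lie lowest.

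The 34 genes without a full set of values include several that define the pathway. Smad4, Smad7, Id2, Id3, Fst and Inhbb fit the name rule but had no probe with 1 symbol. They are not among the 77 genes. Blank on every array were the ligands Bmp5, Bmp8b, Gdf2, Gdf3 and Gdf6, the activin receptor Acvr1b, Fstl4, Fstl5, Tgif2lx1 and 4 Skint genes. A blank cell is not a level of 0. Of the Smads, Smad1, Smad3 and Smad9 had values on 4, 5 and 4 arrays. None of the 77 genes had values on all arrays of 1 pool and none of the other. When probes with values on at least 2 arrays of each pool were admitted, 53 genes were tested and 3 were called higher. Of the 17810 probes then tested, 319 were called higher and 607 lower.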

How the data were processed

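Inguinal fat RNA of 2 pools of 8 mice was measured on 3 arrays each. The authors hybridized labeled cRNA to one-color chemiluminescent mouse genome arrays and normalized by the quantile method. The deposited values are linear signal intensities. The methods define detected features by signal over noise and a quality flag, and whether blank cells are the undetected ones was not settled. Between 18018 and 20605 of 33012 probes had a value on an array, and the small number of arrays sets the precision. No build is named for the probes in the sources used here.

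Intensities were log2 transformed without further normalization, and 15821 probes with values on all 6 arrays were compared with limma 3.58.1 (lmFit, eBayes) in R 4.3.3. The procedure was tested on simulated data. The probe annotation gave 14411 probes a single symbol, 247 more than 1 and 18354 no symbol. Symbols were updated through RefSeq by gene identifier, which left all 77 superfamily symbols unchanged. A gene with several probes was represented by its brightest tested probe, which concerned 2 superfamily genes, neither of them tested. The superfamily, the roles and the gene lists were chosen with earlier results of these data known. Named genes are every called one, the highest signal and both extreme ratios of each role, Bmp3, up to 5 called genes in each direction per pathway list, and the marker of highest signal in each list. Others were named after their values were seen.

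The alternatives tried were quantile normalization once more, a zero set at the median of all probes or of adipocyte markers, removal of dim probes, an added offset of the 10th percentile (2848), an intensity trend with robust estimation, other fold thresholds, the ANOVA of the methods, the array number as a block, leaving out each array, a looser rule on blanks and the mean over the probes of a gene.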

Additional observations from a re-analysis of the deposited data

How the results depend on the processing

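The number of superfamily genes called higher, 3 with all arrays, was 1 to 3 with 1 array left out. It was 1 without the first or second high-gainer array or the third low-gainer array. An intensity trend with robust estimation called 5, beside 491 of all probes higher and 722 lower. A fold threshold of 2 left 1. The ANOVA of the methods after Benjamini-Hochberg adjustment left 0, with 46 probes higher and 111 lower in all. The unadjusted ANOVA called 4. Other pathway genes called higher, 5 in all, were 2 at a fold threshold of 2, 0 with the adjusted ANOVA, 2 with the replicate block and 2 to 4 with 1 array left out. The 1 called lower became 0 without dim probes and 0 with the adjusted ANOVA.

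Setting ratios against the change of adipocyte markers gave 203 probes higher and 894 lower, so that 18.5% of calls were higher in place of 38.5%, moved the superfamily median to 0.09 and that of all probes to -0.12, and called 1 superfamily gene and 2 other pathway genes lower. It turned 10 superfamily genes from above to below 0, at log2 ratios of -0.07 (Bambi), -0.06 (Bmp2k), -0.04 (Bmper), -0.14 (Gdf10), -0.02 (Id1), -0.03 (Smad5), -0.03 (Smurf2), -0.14 (Tgfbr2), -0.08 (Tgfbr3) and -0.04 (Zeb1). With 1 array left out, signs turned in at least 1 fit for 6 superfamily genes, Bambi (range -0.0018 to 0.11), Bmp2k (-0.09 to 0.21, below 0 at -0.03 as well), Gdf10 (-0.09 to 0.09, below 0 at -0.04 and -0.01 as well), Tgfbr1 (-0.17 to 0.01), Tgfbr2 (-0.05 to 0.10) and Tgfbr3 (-0.10 to 0.21). None of these genes was called in any of these fits, and the cause was not tested.

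Over all probes, 396 were higher and 632 lower. A fold threshold of 2 left 98 and 402, which is 19.6% higher. With 1 array left out 105 to 319 were higher and 368 to 493 lower, and the superfamily median was 0.18 to 0.27. Deviations of same-numbered arrays from their pool means correlated at r = 0.04, -0.11 and 0.27, so that numbers were not taken as pairs. With the replicate block 173 probes were higher and 446 lower (27.9% of calls higher), Bmp3 and Fstl3 stayed called and Chrdl1 did not. Depth is set by signal over background, and the dim probes, which include those of Fstl3, Bmpr1a and Bmp4, lie nearest to it.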

Other observations

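Superfamily genes with values on some arrays were left out of the comparisons. Inhbe, the inhibin beta-E subunit, gave 2443, 1955 and 1599 in high gainers and 1248 and 744 on low gainers replicates 1 and 2, with 1 blank. Inhba, the activin A subunit, gave 2858 and 3233 on high gainers replicates 1 and 2 and 2239 on low gainers replicate 3. Gdf5, a joint-forming ligand, gave 1119 and 1266 in high gainers and 957, 1210 and 3626 in low gainers, so that 1 low-gainer array was far above the others.

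Smad3, which carries TGF-beta signals, gave 2324 and 1915 in high gainers and 1246, 2039 and 1703 in low gainers. Nog, the BMP antagonist noggin, gave 802 on 1 high-gainer array and 1197 and 1720 on 2 low-gainer arrays. Grem1 gave 2255 on 1 low-gainer array, Bmp7 gave 788 and Id4 gave 557 on 1 high-gainer array, and the other arrays were blank.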
